A study of Saccharomyces cerevisiae and Saccharomyces cerevisiae x Saccharomyces paradoxus with 20 samples.

Results

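The regions described here are the 361 of 3498 nucleosome-free regions (NFRs) in the deposited yeast tables that had no start of a tabulated gene beside them. They were chosen by position alone. A region was kept if it lay more than 50000 bp from either end of its chromosome and did not overlap the 300 bp upstream of any of the 4995 genes in the RNA tables. A further 2732 NFRs away from the chromosome ends did overlap such a window and served as the comparison, and 405 NFRs near chromosome ends were left out of both sets. The selection was meant to hold NFRs without an adjacent gene start, and the annotation went against that name. Of the 361 regions, 324 (89.8%) overlapped the 300 bp upstream of a protein-coding gene that is annotated in the R64 reference but is not in the RNA tables used here. They are therefore called NFRs without a tabulated start.

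Accessibility was measured by FAIRE-Seq in 5 groups of 2 biological replicates each. These were the haploid S. cerevisiae strains UWOPS05_217_3 (UW, a wild isolate) and DBVPG1373 (DBV, a wine strain), the haploid strain CBS432 (CBS), and the diploid hybrids of UW with CBS and of DBV with CBS. CBS432 is S. paradoxus, the sister species, by the study's account, although its GEO organism entry reads S. cerevisiae. All cultures were grown in YEPD to log phase and fixed with 1% formaldehyde for 35 minutes, and each genotype was represented by a single strain or cross. Tables held whole-number counts per NFR, with totals from 2561228 to 4198250 in haploid libraries and from 1339393 to 2036883 per allele in hybrid libraries. A read covering several counted sites may enter more than once, so these are not numbers of molecules.

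FAIRE recovers the DNA that formaldehyde leaves unlinked to protein, which in yeast comes mostly from the gap in the nucleosome array just upstream of gene starts. Transcription factors and the transcription machinery bind in that gap. An accessibility difference between species can arise from the sequence around the region (in cis) or from diffusible factors (in trans). In a hybrid both alleles share a nucleus, so a difference between alleles is read as a cis difference.

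The genes beside these NFRs were identified from the R64 annotation, whose gene starts and ends were identical to the tables for 92.1% of the 4597 matched genes. The 324 regions lay upstream of 339 distinct genes not in the RNA tables, and 15 regions had more than 1 of them. In R64, 1406 of 6002 protein-coding genes (23.4%) are not in these RNA tables. Only 138 of the 2732 comparison NFRs (5.05%) also touched such a start. By class, 312 regions had a protein-coding start outside the tables, 13 had an RNA gene, 13 were centred inside a tabulated gene and 23 had none of these. In all, 36 regions overlapped neither an RNA gene nor the 300 bp upstream of an annotated protein-coding or RNA gene. They are called regions with no annotated start. The label does not exclude a start close by: the region centred in REG2 lay 171 bp from the start of REG2.

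The 324 regions sat upstream of their genes as the comparison NFRs sat upstream of tabulated genes. Their centres lay at a median of 148.5 bp upstream of the start (quartiles 87.25 to 218.75 bp), against 147.5 bp (quartiles 95.0 to 207.1 bp) for the comparison NFRs. The share of centres within 300 bp upstream was 89.8% and 90.6%. The authors looked for each NFR within 300 bp upstream of a start codon, so a position there follows from how the regions were called. Widths were also alike, with a median of 225 bp (quartiles 137 to 323 bp) against 235 bp (quartiles 153 to 329 bp).

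**Figure D1:**
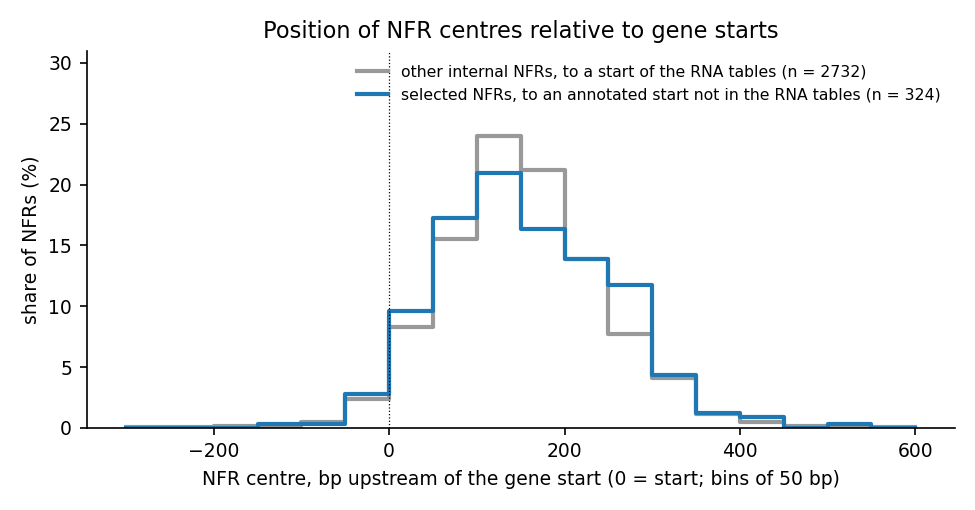
Share of NFRs (%) by the distance of the NFR centre upstream of a gene start (bp, bins of 50 bp), for 324 NFRs without a tabulated start measured to annotated starts not in the RNA tables (blue) and 2732 comparison NFRs measured to tabulated starts (grey). Both distributions peak between 100 and 150 bp upstream, with medians of 148.5 and 147.5 bp.

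The distance to the nearest tabulated start had a median of 1163 bp and exceeded 1000 bp in 205 regions. The regions closest to the 300 bp limit were the NFR of FAR8, 3 bp past the window of RSF1, and that of RPS23B, 5 bp past the window of NAT3. FAR8 acts in pheromone-induced arrest and RPS23B encodes a protein of the small ribosomal subunit. The FAR8 region had 378 and 477 counts in UW, 650 and 275 in DBV, and 682 and 540 in CBS. Just inside the limit, the NFRs with the least overlap shared 2 bp with the window of MAC1 and 3 bp with that of DUR3, and both had 0 counts in every haploid library. The farthest regions were those of PIL1, a core protein of eisosomes, at 32984 bp, and of YGR035C and YGR035W-A, at 32725 bp.

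Chromosome VII held 49 of the 361 regions, which was 23.0% of its NFRs away from the ends, against 11.7% over all chromosomes. On that chromosome 262 of 541 R64 protein-coding genes (48.4%) are not in the RNA tables. Whole stretches had no tabulated gene: chromosome VII from 524694 to 617621 holds 48 R64 protein-coding genes and had 4 of the regions, and from 617989 to 703636 it holds 40 and had 4. The longest such stretch, chromosome IV from 1150520 to 1246084, holds 49 genes and had 1 region. Coordinates are those of the tables, for which the submitters' processing notes name sacCer3.

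Accessibility at these NFRs was close to that of the comparison NFRs, and the gene groups among them differed widely. Levels are given as CPM per kb, the counts per 1000000 counts of the table divided by the width of the NFR, which allows regions of different width to be compared. The median level of the 361 regions was 833 to 1002 in the 6 haploid libraries. The ratio to the comparison NFRs had a median of 1.10 over these libraries (range 1.02 to 1.16), and it was above 1 in 16 of 16 tables, hybrid alleles included. Without division by width the ratio was 0.982. Replicates of the regions correlated with Pearson's r of 0.927 to 0.959 on log2 CPM, a description over 361 regions that share libraries.

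Regions beside ribosomal protein genes were highly accessible. Of 138 cytosolic ribosomal protein genes in R64, 109 are not in the RNA tables, and 51 of them lay beside 50 of the regions. These genes encode the protein part of the ribosome and are among the most highly transcribed genes of growing yeast. Their median level was 1491 to 1938 in the haploid libraries, 2.05 times that of the comparison NFRs (range 1.69 to 2.42), and it was higher in 16 of 16 tables. The 7 regions beside genes of glycolysis and fermentation had a ratio of 1.96 and the 7 beside translation factors 1.45, again above 1 in 16 of 16 tables. The median level of the glycolysis list was above that of the ribosomal protein list in 3 of 16 tables.

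The remaining lists lay on both sides of the comparison NFRs. The 9 regions of the mating pathway had a ratio of 1.50 in the haploid libraries (range 1.27 to 1.79), and it was above 1 in 13 of 16 tables. Among the hybrid allele tables it fell as low as 0.753. The 20 regions beside genes for cell wall and surface proteins had a ratio of 1.12 and the 12 beside genes of meiosis and sporulation 1.04, above 1 in 11 and 7 tables. The 9 beside heat shock proteins and chaperones had 0.823 and the 15 beside membrane transporters 0.821, above 1 in 3 and 2 tables. The 2 beside core histone genes had 0.687, above 1 in 6 tables. All 9 lists were chosen with the region names in view, and together they cover 129 of the 361 regions.

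**Figure D2:**
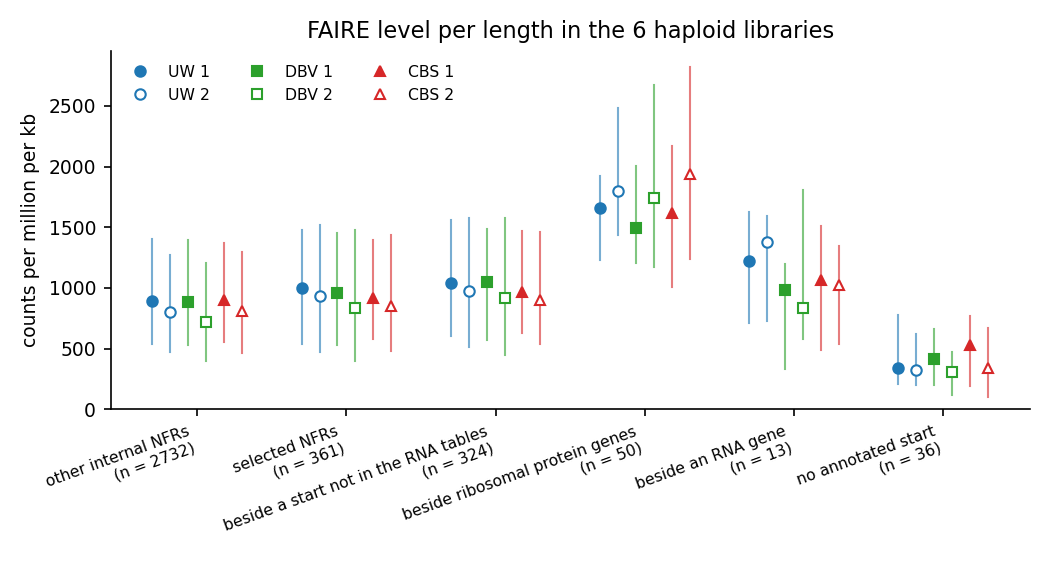
Median FAIRE level (CPM per kb, points) and quartiles (lines) in each of the 6 haploid libraries, for the comparison NFRs, the 361 NFRs without a tabulated start and their subsets; filled and open symbols are replicates 1 and 2. Regions beside ribosomal protein genes had medians of 1491 to 1938, and the 36 with no annotated start had medians of 308 to 526.

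The 5 most accessible regions lay beside RPL3, COA6, IOC4, RPS3 and GPA1. The NFR of RPL3, a protein of the large ribosomal subunit, had the highest median level at 4667 CPM per kb. Its counts were 12687 and 17440 in UW, 10568 and 14678 in DBV, and 6513 and 8465 in CBS. COA6, which encodes a cytochrome c oxidase assembly factor, followed at 4211. IOC4, a subunit of the Isw1b chromatin remodeller, had 3906, RPS3 of the small ribosomal subunit 3812, and GPA1, the alpha subunit of the pheromone-response G protein, 3612. Among the 35 NFRs with the highest level of all 3498, 6 (17.1%) were NFRs without a tabulated start, as were 13.0% of the top 100 and 12.6% of the top 350, against 10.3% of all NFRs.

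The 36 regions with no annotated start were weakly accessible. Their median level was 308 to 526 in the haploid libraries, 0.427 times that of the comparison NFRs (range 0.382 to 0.587), and it was lower in 16 of 16 tables. In 32 of the 36 the level was below the median of the comparison NFRs, and 4 had 0 counts in every table. They were also narrower, with a median width of 148 bp. The narrowest of the 361 regions, 2 bp at chromosome VII from 635992 to 635994, is among those at 0. The 27 regions centred inside a tabulated gene, 14 of them beside an annotated start as well, had a ratio of 0.439.

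A few regions with no annotated start stood out by their level or by a species difference. The region nearest to CLB1, a B-type cyclin gene, lay 776 bp from its start and had 4015 and 5482 counts in UW, 3509 and 6778 in DBV, and 2784 and 3418 in CBS. Its median level of 2393 was the highest of the 36. The region nearest to YER158C, 590 bp from the start at chromosome V from 491168 to 491482, had 675 and 1810 counts in UW, 853 and 1395 in DBV, and 183 and 270 in CBS. Every S. cerevisiae library was above both CBS libraries there, and the UW difference was 1.99 ± 0.37 on the log2 scale (SE, n = 2 per group, edgeR adjusted p = 0.000624). The region near RPC31, a subunit gene of RNA polymerase III, went the other way, with 272 and 317 counts in UW and 911 and 643 in CBS (log2 difference -1.75 ± 0.34, edgeR adjusted p = 0.000891). These examples were chosen after their values were seen.

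The 13 regions with an RNA gene included 5 with a tRNA gene and 3 with a snoRNA gene, and 12 of them also had a protein-coding start outside the tables. The strand of such a region cannot be told from FAIRE, so the signal is not assigned to either gene. Their median level was 1.22 times that of the comparison NFRs, above 1 in 13 of 16 tables. The region at RPR1, the RNA subunit of RNase P, had 416 and 199 counts of the DBV allele against 1049 and 675 of the CBS allele in the DBV hybrid, a log2 difference of -1.54 ± 0.24 (SE, n = 2 libraries, edgeR adjusted p = 0.00124). In the UW hybrid the alleles had 407 and 400 against 491 and 835 counts (log2 difference -0.67 ± 0.28, edgeR adjusted p = 0.0665), and without UW hybrid replicate 1 the edgeR adjusted p was 0.0467. The region at SUP3, a tRNA gene beside YOL019W-A, was among the highest of the 13, with a level of 2360.

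Species differences at these NFRs were next compared between the haploid strains. A region was called when its edgeR quasi-likelihood p-value, adjusted by the Benjamini-Hochberg method over all 3498 NFRs, was under 0.05. Between UW and CBS, 74 of 361 regions (20.5%) were called, against 20.4% of all NFRs, with 41 higher in UW and 33 higher in CBS (10.8% and 9.58% of all NFRs). Between DBV and CBS, 29 regions (8.03%) were called, against 8.23% of all NFRs, with 16 higher in DBV and 13 higher in CBS (4.26% and 3.97% of all NFRs). The share of called regions was thus near the background in both comparisons, and the median absolute log2 difference was 0.52 in the regions and 0.51 in all NFRs for UW against CBS. The comparisons share the CBS libraries.

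These counts moved with single libraries. The share of all NFRs called in the same fits is not given here, so the movement is not shown to be particular to these regions. Without CBS replicate 1 the calls were 48 for UW and 10 for DBV, and without CBS replicate 2 they were 38 and 11. Without DBV replicate 1 or 2 the calls between DBV and CBS were 66 and 53, and DESeq2 called 54. Of the 74 UW calls, 16 were called in each of the 4 fits without a library, and of the 29 DBV calls 6 were.

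The largest differences toward S. cerevisiae were at LYS20, BCK1 and DCD1. The NFR of LYS20, which encodes a homocitrate synthase of lysine synthesis, lay at chromosome IV from 133163 to 133424. It had 1159 and 2670 counts in UW, 1030 and 1933 in DBV, and 204 and 173 in CBS. Every S. cerevisiae library was above both CBS libraries, and the log2 difference was 2.91 ± 0.33 for UW (SE, n = 2 per group, edgeR adjusted p = 7.26e-06) and 3.05 ± 0.44 for DBV (edgeR adjusted p = 0.00233). Both calls held without each library in turn.

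The NFR of BCK1, the MAP kinase kinase kinase of the cell wall integrity pathway, lay at chromosome X from 246927 to 247071. It had 360 and 667 counts in UW, 234 and 386 in DBV, and 68 and 57 in CBS, again with no overlap of the species. The log2 difference was 2.63 ± 0.44 for UW (SE, n = 2 per group, edgeR adjusted p = 0.000259). For DBV it was 2.38 ± 0.57 (edgeR adjusted p = 0.0207), a call lost without DBV replicate 2 (0.109), CBS replicate 1 (0.0969) and CBS replicate 2 (0.0638, all edgeR adjusted p). DCD1, which encodes a deoxycytidylate deaminase, had 1408 and 1144 counts in UW, 949 and 176 in DBV, and 297 and 157 in CBS. Its UW difference was 2.19 ± 0.35 on the log2 scale (edgeR adjusted p = 0.000173), while the DBV libraries ran from near the CBS level to well above it.

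The largest differences toward S. paradoxus were at SKP1, PRM2 and GEP5. SKP1 encodes a core subunit of SCF ubiquitin ligases and of the kinetochore, and its NFR lay at chromosome IV from 1125978 to 1126282. It had 668 and 616 counts in UW, 532 and 329 in DBV, and 3420 and 2453 in CBS. Both CBS libraries were above every S. cerevisiae library, and the log2 difference was -2.52 ± 0.35 for UW (SE, n = 2 per group, edgeR adjusted p = 3.39e-05) and -2.75 ± 0.36 for DBV (edgeR adjusted p = 0.00135). Both calls held without each library in turn. At PRM2, which encodes a pheromone-regulated membrane protein, UW had 156 and 163 counts and CBS 563 and 704, a log2 difference of -2.36 ± 0.39 (edgeR adjusted p = 0.000205). At GEP5, a gene for a mitochondrial protein, UW had 101 and 118 counts, DBV 66 and 56, and CBS 416 and 344, with log2 differences of -2.16 ± 0.42 for UW and -2.72 ± 0.50 for DBV (edgeR adjusted p = 0.000996 and 0.00598).

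PRY2 stood out in the comparison of DBV with CBS. It encodes a secreted sterol-binding protein, and its NFR had 666 and 957 counts in DBV, 240 and 879 in UW, and 166 and 142 in CBS at the sites counted for DBV. The DBV difference was 2.44 ± 0.42 on the log2 scale (SE, n = 2 per group, edgeR adjusted p = 0.00468). The alleles of the DBV hybrid differed less there, at 0.71 ± 0.36 (edgeR adjusted p = 0.155).

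Alleles were then compared within the hybrids. In the UW hybrid 109 of 361 regions (30.2%) were called, against 24.8% of all NFRs, with 66 higher on the UW allele and 43 higher on the CBS allele (15.1% and 9.69% of all NFRs). TMM scaling centres the log2 allele differences of all NFRs, whose median was otherwise 0.09. It gave 103 calls, 52 and 51 by direction, so the excess toward UW rests on the scaling. In the DBV hybrid 115 regions (31.9%) were called, against 29.8% of all NFRs, with 63 higher on the DBV allele and 52 higher on the CBS allele (17.5% and 12.3% of all NFRs), and 59 and 60 under TMM. Leaving out replicate 1 or 2 of a hybrid gave 64 and 43 calls in the UW hybrid and 51 and 55 in the DBV hybrid. Of the calls, 20 of 109 and 30 of 115 were made in both of these fits.

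The haploid and the hybrid differences ran together. Of the 74 regions called between UW and CBS, 51 (68.9%, against 66.0% of all NFRs called between UW and CBS) were also called in the UW hybrid. All 51 had the same direction in both, as did 469 of 470 over all NFRs. Across the 361 regions Pearson's r was 0.78 between the UW difference in haploids and in the hybrid, and it was 0.80 across the comparison NFRs. The UW and DBV hybrids are separate libraries, and 64 regions were called in both. Of these, 63 had the same direction (98.4%, against 99.1% over all NFRs called in both). The 64 regions made up 58.7% of the UW list and 55.7% of the DBV list, against 67.0% and 55.6% over all NFRs. Their log2 allele differences had an r of 0.54 across 361 regions and of 0.70 without the YIL014C-A region described further on. These correlations are over regions that share libraries, and are given as descriptions.

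**Figure D3:**
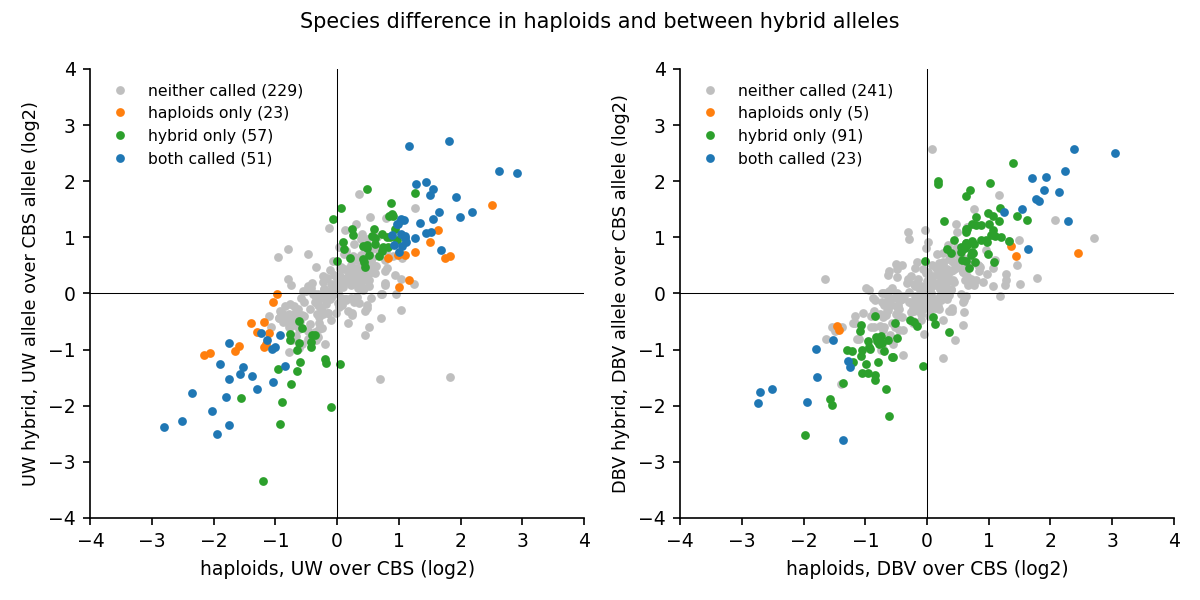
Log2 difference between haploid strains (x axis) and between hybrid alleles (y axis) at 360 NFRs without a tabulated start, for UW (left) and DBV (right), coloured by which test called the region; the YIL014C-A region is left out. Of the regions called in both tests, 51 for UW and 23 for DBV, none lies in a quadrant of opposite signs.

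In 38 regions (10.5%, as in all NFRs, 10.5%) the UW haploid comparison and both hybrids were called in the same direction, 24 of them higher in S. cerevisiae. Hybrid calls over all NFRs also leaned that way, at 15.1% against 9.69% in the UW hybrid and 17.5% against 12.3% in the DBV hybrid. Under TMM scaling of the alleles the hybrid calls at the NFRs without a tabulated start were near even by direction. LYS20 was among the 38 regions. In the UW hybrid the UW allele had 756 and 910 counts and the CBS allele 171 and 205, and in the DBV hybrid the DBV allele had 1725 and 1558 and the CBS allele 318 and 265. The log2 allele differences were 2.15 ± 0.30 and 2.50 ± 0.20 (SE, n = 2 libraries each, edgeR adjusted p = 1.13e-10 and 3.65e-05). SKP1 had allele differences of -2.27 ± 0.28 and -1.95 ± 0.20 (edgeR adjusted p = 4.02e-13 and 0.000174), and BCK1 of 2.18 ± 0.47 and 2.57 ± 0.45 (edgeR adjusted p = 6.14e-05 and 0.00206). All these calls held without either replicate.

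The NFR between RPL13B and RPS16A, genes for ribosomal proteins of the large and small subunits, lay at chromosome XIII from 551417 to 551938. It had 1642 and 3204 counts in UW, 1993 and 2322 in DBV, and 4736 and 7724 in CBS. In the hybrids the UW allele had 1399 and 1056 counts against 3836 and 5005 for CBS, and the DBV allele 2074 and 1442 against 7942 and 5927. The CBS allele was the higher in all 4 hybrid libraries, by log2 differences of -1.85 ± 0.18 and -1.99 ± 0.11 (edgeR adjusted p = 3.04e-20 and 7.67e-06). The haploid UW difference of -1.81 ± 0.44 (edgeR adjusted p = 0.00599) was lost as a call without UW replicate 1 (0.106) and without CBS replicate 2 (0.0928).

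Further regions of these 38 lay beside genes of varied function. BTN2, which acts in sorting misfolded proteins, had 1508 and 2158 counts in UW, 1148 and 1136 in DBV, and 553 and 412 in CBS, with allele differences of 1.86 ± 0.29 and 1.44 ± 0.19 (edgeR adjusted p = 1.62e-08 and 0.000551). At TUB1, which encodes alpha-tubulin, UW had 715 and 603 counts, DBV 541 and 392, and CBS 86 and 184, a UW log2 difference of 1.92 ± 0.43 (edgeR adjusted p = 0.00332). Its allele differences were 1.72 ± 0.46 and 1.67 ± 0.41, calls lost without UW hybrid replicate 1 and without DBV hybrid replicate 2 (edgeR adjusted p = 0.187 and 0.114). DLS1, a subunit of the Isw2 chromatin accessibility complex, was lower in S. cerevisiae, with 96 and 207 counts in UW against 652 and 243 in CBS. Both CBS libraries were above both UW libraries, and the UW call (-1.95 ± 0.45, edgeR adjusted p = 0.00371) was lost without CBS replicate 1 (edgeR adjusted p = 0.132). Neither hybrid call at DLS1 was made in both fits that left out a hybrid replicate. RPS0A, a small-subunit ribosomal protein gene, had few counts, with 9 and 55 in UW and 80 and 232 in CBS. Neither of its hybrid calls was made in both such fits, and DESeq2 did not call its UW hybrid difference (DESeq2 adjusted p = 0.0583). Its UW difference of -2.81 ± 0.68 (edgeR adjusted p = 0.00589) was lost as a call without CBS replicate 2 (edgeR adjusted p = 0.111).

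AGA2, the a-agglutinin binding subunit, and CLD1, a cardiolipin-specific phospholipase, had the largest allele differences toward UW. At AGA2 the UW allele had 339 and 230 counts and the CBS allele 75 and 26, a log2 difference of 2.62 ± 0.46 (edgeR adjusted p = 6.68e-07). In the DBV hybrid the difference was 1.66 ± 0.40 (edgeR adjusted p = 0.0114), and without DBV hybrid replicate 1 its edgeR adjusted p was 0.258. At CLD1 the UW allele had 229 and 128 counts and the CBS allele 60 and 9, a log2 difference of 2.72 ± 0.54 (edgeR adjusted p = 1.08e-05), lost without UW hybrid replicate 2 (edgeR adjusted p = 0.18). Toward CBS in the DBV hybrid, YPR159C-A had 50 and 91 counts of the DBV allele against 391 and 440 (log2 difference -2.61 ± 0.35, edgeR adjusted p = 0.000605). The region near ATG41, with no annotated start, had 109 and 44 against 493 and 204 counts (log2 difference -2.19 ± 0.35, edgeR adjusted p = 0.0014). At FYV6, whose region also has a tRNA gene, the DBV allele had 210 and 202 counts against 59 and 40 (log2 difference 2.08 ± 0.42, edgeR adjusted p = 0.00484), lost without DBV hybrid replicate 2 (edgeR adjusted p = 0.059).

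Ribosomal protein genes differed between alleles in both directions. In the UW hybrid 12 of their 50 regions were called higher on the UW allele and 10 higher on the CBS allele, and in the DBV hybrid 13 and 15. These were 44.0% and 56.0% of the list, against 24.8% and 29.8% of all NFRs, a description with no test. Under TMM scaling of the alleles these counts were 9 and 12, and 11 and 18. Between haploids, 6 were called higher in UW and 7 higher in CBS, and between DBV and CBS 1 and 2. These were 26.0% and 6.0% of the list, against 20.4% and 8.23% of all NFRs. The median log2 difference of the list was near 0 in all 4 comparisons (-0.01 to 0.04), against 0.00 for all NFRs in both haploid comparisons and 0.09 in both hybrids. Under TMM scaling of the alleles the medians of the list were -0.10 and -0.11. The median absolute log2 allele difference of the list was 0.49 in the UW hybrid and 0.56 in the DBV hybrid. This was close to the 0.51 and 0.54 of all NFRs. Regions of the list had more counts. In replicate 1 the median was 991 for the UW allele and 1481.5 for the DBV allele, against 313 and 343 in the comparison NFRs. Of the 17 regions called in both hybrids, all 17 had the same direction in both, as did 575 of 580 over all NFRs.

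Named ribosomal protein regions, chosen after their values were seen, show the spread. At RPL36B, a large-subunit protein gene, the UW allele had 693 and 960 counts against 2142 and 2774, and the DBV allele 1347 and 966 against 3481 and 2678. The CBS allele was the higher in every library, by -1.58 ± 0.21 and -1.42 ± 0.14 on the log2 scale (SE, n = 2 libraries each, edgeR adjusted p = 6.14e-12 and 0.000114). RPL35B had allele differences of -0.98 ± 0.21 and -0.99 ± 0.14 (edgeR adjusted p = 6.14e-05 and 0.000714). At RPS28B, a small-subunit protein gene, the UW allele had 1714 and 1556 counts against 745 and 651, and the DBV allele 1843 and 1640 against 801 and 821. There the S. cerevisiae allele was the higher, by 1.23 ± 0.22 and 1.10 ± 0.17 (edgeR adjusted p = 1.66e-06 and 0.00119). These allele calls held without either replicate of each hybrid.

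**Figure D4:**
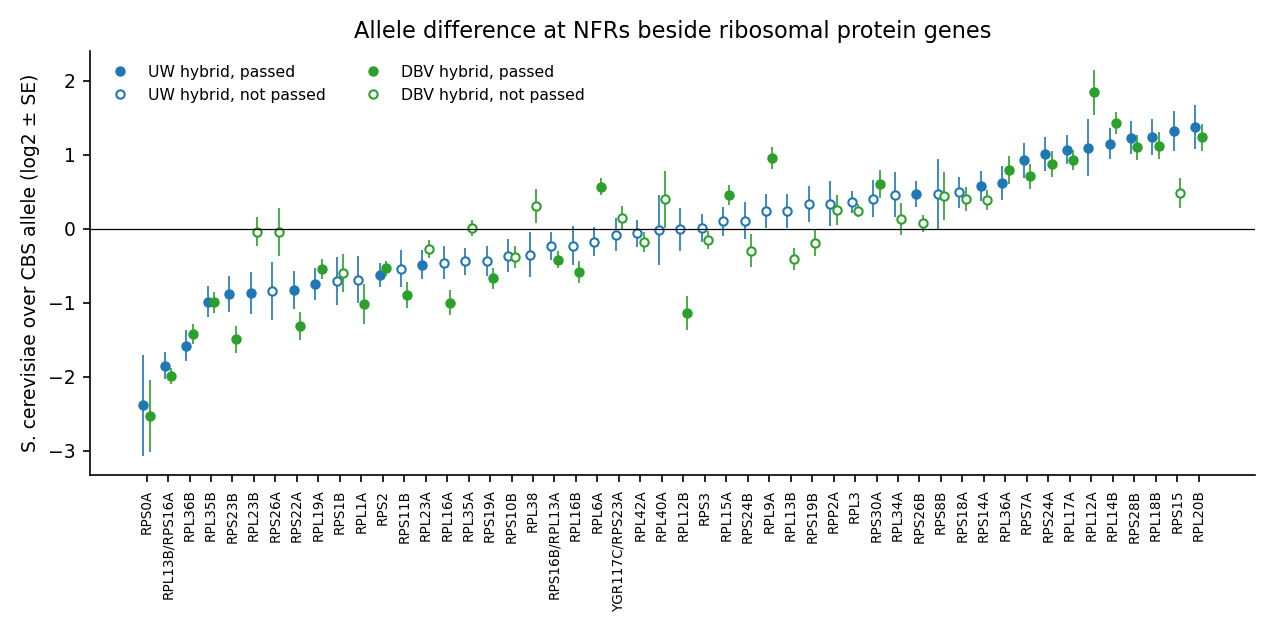
Log2 difference between the S. cerevisiae and the CBS allele (± SE, n = 2 hybrid libraries) at the 50 NFRs beside ribosomal protein genes, ordered by the UW hybrid, in the UW hybrid (blue) and the DBV hybrid (green); filled points passed the edgeR test. Calls fall on both sides of 0, from -2.39 to 1.37 in the UW hybrid and from -2.53 to 1.84 in the DBV hybrid.

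The glycolytic and fermentation genes outside the tables also split. Of their 7 regions, 2 were called higher on the S. cerevisiae allele and 1 lower in each hybrid. These were 42.9% of the list in each, against 24.8% of all NFRs in the UW hybrid and 29.8% in the DBV hybrid. PDC1, the main pyruvate decarboxylase, had 3327 and 5782 counts in UW, 3242 and 5129 in DBV, and 1437 and 1409 in CBS, and allele differences of 0.98 ± 0.20 and 1.31 ± 0.13 (edgeR adjusted p = 2.84e-05 and 0.000136). ADH1, the main fermentative alcohol dehydrogenase, had the widest of the 361 regions at 1054 bp, with allele differences of 0.56 ± 0.16 and 0.69 ± 0.09 (edgeR adjusted p = 0.00323 and 0.000502). The region shared by YHR173C and ENO2, an enolase gene, went toward CBS, by -1.47 ± 0.22 and -1.03 ± 0.14 (edgeR adjusted p = 1.52e-09 and 0.000654). All of these allele calls held without either replicate. Between UW and CBS, PDC1 (1.27 ± 0.36) and ENO2 (-1.38 ± 0.35) were called (edgeR adjusted p = 0.0133 and 0.00774). The PDC1 call was lost without UW replicate 2, CBS replicate 1 or CBS replicate 2 (edgeR adjusted p = 0.0618, 0.151 and 0.108), and the ENO2 call without UW replicate 2 or CBS replicate 2 (0.0754 and 0.0815).

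The remaining lists are small, so 1 call moves their share widely. Of 7 regions beside translation factors, 2 were higher and 1 lower on the UW allele (0 and 1 under TMM scaling), and 0 and 1 on the DBV allele. These were 42.9% and 14.3% of the list, against 24.8% and 29.8% of all NFRs. TIF1, an eIF4A gene, was called between UW and CBS (-1.23 ± 0.33, edgeR adjusted p = 0.0099), a call lost without UW replicate 2 (0.0774) and CBS replicate 2 (0.106). Of 9 beside heat shock proteins and chaperones, 3 were higher and 1 lower in UW than in CBS (44.4% of the list, against 20.4% of all NFRs). In the UW hybrid the counts were 2 and 1 (33.3%, against 24.8% of all NFRs), and 1 and 1 under TMM scaling of the alleles. The lower one in both was SSA2, a cytosolic Hsp70, with 184 and 358 counts in UW and 534 and 630 in CBS. Its differences were -1.53 ± 0.37 and -1.31 ± 0.38 (edgeR adjusted p = 0.00578 and 0.0049), lost without CBS replicate 2 (0.0616) and without either UW hybrid replicate (0.061 and 0.0704). Of 15 beside membrane transporters, 1 was higher and 1 lower in UW than in CBS, and in the hybrids 0 and 2 for UW and 1 and 2 for DBV. These were 13.3%, 13.3% and 20.0% of the list, against 20.4%, 24.8% and 29.8% of all NFRs. HXT10, a hexose transporter gene, was lower on the S. cerevisiae allele in both hybrids (-1.16 ± 0.42 and -1.41 ± 0.33, edgeR adjusted p = 0.0293 and 0.00992). Its call was lost without UW hybrid replicate 2 (edgeR adjusted p = 0.77) and without either DBV hybrid replicate (0.105 and 0.0794).

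The meiosis and sporulation genes had 0 regions higher and 3 lower in UW than in CBS, of 12 (25%, against 20.4% of all NFRs called in either direction). SGA1, a sporulation-specific glucoamylase gene, was called lower in all 4 comparisons, with 452 and 857 counts in UW, 336 and 286 in DBV, and 925 and 847 in CBS. Its UW difference was -0.85 ± 0.30 (edgeR adjusted p = 0.0465), and without each of the 4 libraries the edgeR adjusted p was 0.0506 to 0.296. The DBV call (-1.53 ± 0.35, edgeR adjusted p = 0.017) was lost without either CBS replicate (0.0852 and 0.0823). Its UW hybrid call (-1.30 ± 0.34, edgeR adjusted p = 0.00132) was lost without UW hybrid replicate 1 (0.433), and its DBV hybrid call (-0.82 ± 0.27, edgeR adjusted p = 0.0405) without either replicate (0.499 and 0.103) and with DESeq2 (0.0545). In the hybrids 3 regions of this list were higher and 2 lower on the UW allele, and 1 and 1 on the DBV allele. These were 41.7% and 16.7% of the list, against 24.8% and 29.8% of all NFRs. Of the 2 regions beside core histone genes, HTB1, which encodes histone H2B, was higher in S. cerevisiae, by 1.06 ± 0.32 and 1.52 ± 0.24 between alleles (edgeR adjusted p = 0.00764 and 0.00126), and its UW hybrid call was lost without replicate 2 (edgeR adjusted p = 0.0953).

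The mating pathway and the cell surface lists share AGA1 and AGA2. Of 9 mating regions, 4 were higher and 1 lower on the UW allele, and 3 and 1 on the DBV allele (3 and 1 in each under TMM scaling). These were 55.6% and 44.4% of the list, against 24.8% and 29.8% of all NFRs. Only the calls of AGA2 and PRM2 in the UW hybrid and of GPA1 in the DBV hybrid held without either replicate. GPA1 had 2196 and 4303 counts in UW, 3448 and 3875 in DBV, and 613 and 1015 in CBS, with no overlap of the species. Its haploid differences were 1.55 ± 0.35 for UW and 2.14 ± 0.45 for DBV (edgeR adjusted p = 0.00338 and 0.0121), both lost without CBS replicate 1 (0.112 and 0.26) and that for DBV also without CBS replicate 2 (0.0546). Its allele difference in the DBV hybrid was 1.80 ± 0.29 (edgeR adjusted p = 0.00156), with 871 and 934 counts against 365 and 180. Of 20 cell surface regions, 4 were higher and 2 lower in UW than in CBS, 3 and 2 in the UW hybrid, and 6 and 3 in the DBV hybrid (6 and 5 under TMM scaling). The shares were 30.0%, 25% and 45.0% of the list, against 20.4%, 24.8% and 29.8% of all NFRs. TIR4, a cell wall mannoprotein gene, was lower on the UW allele by -1.94 ± 0.42 (edgeR adjusted p = 7.08e-05), with 101 and 69 counts against 330 and 315.

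The strains of S. cerevisiae differed little. Between UW and DBV, 1 of 361 regions was called, against 0.114% of all NFRs (4 of 3498), and 10 had an unadjusted p under 0.05. DESeq2 called 2, and without DBV replicate 1, DBV replicate 2 or UW replicate 2 the calls were 12, 3 and 2. The strains were counted at sites that may differ, and CBS counts at the UW and the DBV site sets differed by over 10% in 29 and 35 of the regions in replicates 1 and 2. The median absolute log2 difference between UW and DBV was 0.27 in the regions and 0.25 in all NFRs.

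The called region lay beside YIL014C-A on chromosome IX from 325510 to 325655 and also holds the tRNA gene YNCI0009W. It had 664 and 765 counts in UW, 533 and 276 in CBS, and 0 and 0 in DBV. In the DBV hybrid the DBV allele again had 0 and 0 counts, while the CBS allele in the same libraries had 146 and 155. In the UW hybrid the UW allele had 320 and 347 counts and the CBS allele 180 and 59. All 4 DBV tables were thus at 0 where every other table had counts, and the cause was not tested. Taking a floor of 3 counts per library, UW was at least 156-fold higher than DBV, CBS at least 89.8-fold higher than DBV, and the CBS allele at least 48.7-fold higher than the DBV allele (edgeR adjusted p = 0.00497, 0.000188 and 0.0002, the last 0.0565 with DESeq2). In a comparison chosen after the data were seen, its allele difference was the only 1 of the 361 called different between the hybrids, against 0.429% of all NFRs (0.343% higher and 0.0858% lower in the UW hybrid).

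TIP1, a cell wall mannoprotein gene, had the next clearest strain pattern. Its NFR, on chromosome II from 372795 to 373146, had 162 and 264 counts in UW, 792 and 1121 in DBV, and 554 and 752 in CBS. The UW libraries were below all others, and the UW allele had 98 and 93 counts against 398 and 421 of CBS. The UW differences from CBS were -2.03 ± 0.38 in haploids and -2.10 ± 0.39 in the hybrid (edgeR adjusted p = 0.000623 and 2.28e-06), and both held without each library. Those of DBV from CBS were 0.58 ± 0.39 and -0.56 ± 0.22 (edgeR adjusted p = 0.376 and 0.0825). Without DBV replicate 1 the haploid difference was called at 1.00 (edgeR adjusted p = 0.0335), and under TMM scaling the allele difference was called at -0.65 (edgeR adjusted p = 0.0416). The direct difference between UW and DBV was -2.62 ± 0.42 and did not pass the test (edgeR adjusted p = 0.159).

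**Figure D5:**
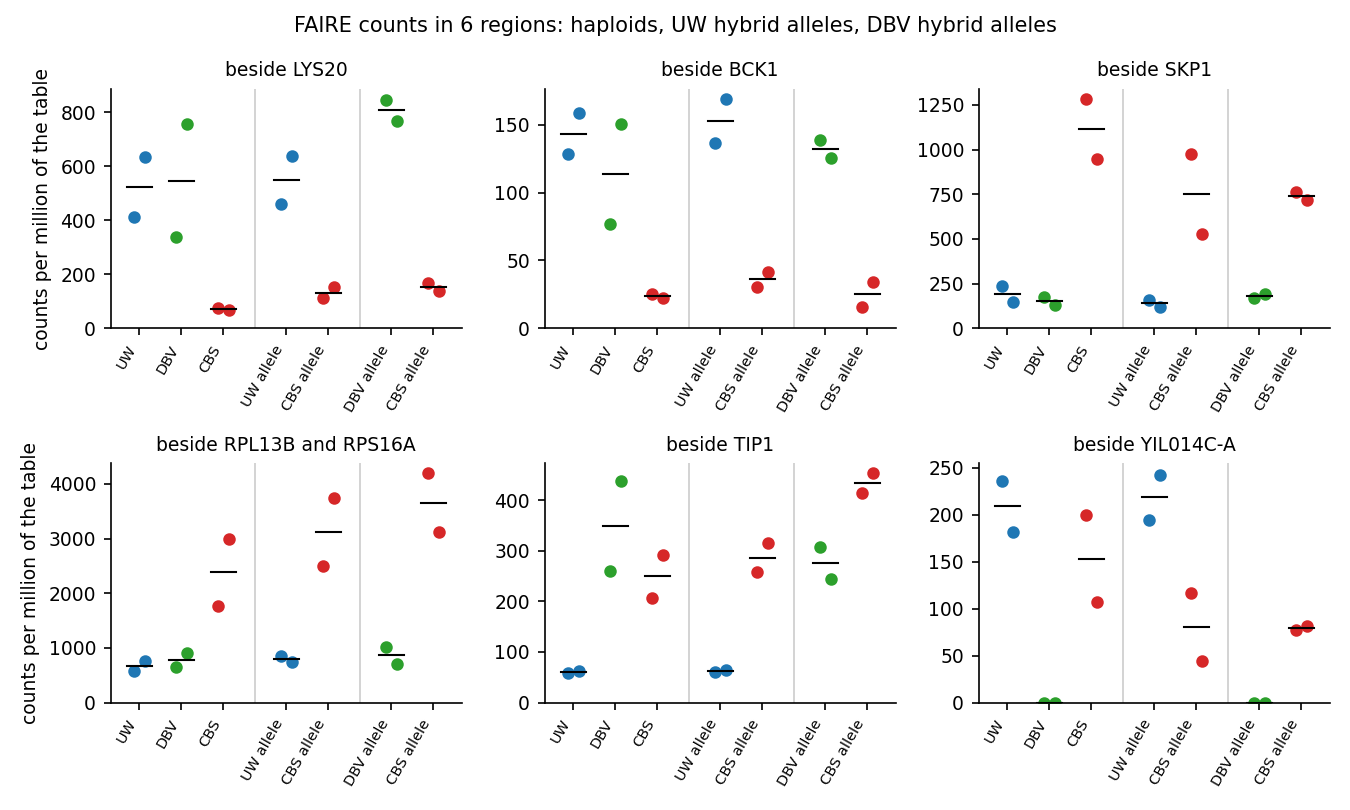
FAIRE counts as CPM at 6 NFRs without a tabulated start: points are the 2 libraries or alleles of a group, lines their mean, with haploids, UW hybrid alleles and DBV hybrid alleles from left to right. At LYS20, BCK1 and SKP1 the species separate in haploids and hybrids alike; at TIP1 the UW strain and allele stand below the rest, and at YIL014C-A the DBV strain and allele are at 0.

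Trans differences, the change of the species ratio from haploids to hybrid, were not detected at these NFRs. The same test called only 2 of all 3498 NFRs in the UW cross, so a lack of calls does not show that trans differences were absent. It paired parents by replicate number, a pairing that was not shown. The study, with a different model, reported trans effects at many NFRs. In the UW cross 0 of 361 regions were called, against 0.0572% of all NFRs, and 18 had an unadjusted p under 0.05. In the DBV cross 0 were called, against 0.0% of all NFRs, and 21 had an unadjusted p under 0.05. DESeq2 called 0 in each cross. The median interaction was -0.10 in the UW cross for the regions and for all NFRs, and -0.11 and -0.16 in the DBV cross, and TMM scaling moved these medians to between 0.00 and 0.03. Without UW hybrid replicate 2, 1 region was called.

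Genes beside most of these regions have no RNA counts in the tables used here, so RNA was read for the 27 tabulated genes with a region centred in their body. Between UW and CBS, 17 of the 27 genes were called, against 54.6% of all 4995 genes, and 21 between the alleles of the UW hybrid, against 68.6%. At BUD31, a splicing factor gene, the region inside the gene was higher in UW than in CBS (934 and 2555 against 357 and 427 counts, 1.69 ± 0.34, edgeR adjusted p = 0.00118). The BUD31 RNA was lower in UW, with 476 and 598 counts against 583 and 1340 (log2 difference -0.96 ± 0.20, edgeR adjusted p = 0.00428). Between the UW hybrid alleles the BUD31 RNA was not called different (-0.20 ± 0.27, edgeR adjusted p = 0.53). At YPF1 both the region and the RNA were higher in UW, by 1.16 ± 0.41 and 1.10 ± 0.08 (edgeR adjusted p = 0.0468 and 3.23e-05), and the FAIRE call was lost without UW replicate 1 (0.269) and CBS replicate 2 (0.34). Inside BRF1, a subunit gene of the TFIIIB factor, the region was lower in UW (154 and 103 against 436 and 267 counts, -1.75 ± 0.45, edgeR adjusted p = 0.00782), a call lost without UW replicate 2 (0.0938) and CBS replicate 1 (0.0699), and the RNA difference was 0.05 ± 0.09 (edgeR adjusted p = 0.679). In the UW hybrid the BRF1 RNA was lower on the UW allele, by -0.27 ± 0.06 (edgeR adjusted p = 6.28e-05).

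In 189 of 361 regions (52.4%, against 57.7% of all NFRs) none of the 4 comparisons between S. cerevisiae and S. paradoxus was called. The most even levels over the 6 haploid libraries were at TYE7, a regulator of glycolytic genes, PPT1, a protein phosphatase gene, and SFM1, a methyltransferase gene. TYE7 had 1921 and 2808 counts in UW, 1796 and 1806 in DBV, and 1605 and 1657 in CBS, with a standard deviation of 0.103 on log2 CPM. Its UW difference from CBS was 0.14 ± 0.32 and its allele differences -0.11 ± 0.24 and -0.27 ± 0.16 (edgeR adjusted p = 0.812, 0.789 and 0.225). Some of the 361 regions had few counts to compare: 12 had a mean haploid count under 50 and 5 were at 0 in every table. The cause of the low counts was not tested.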

How the data were processed

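The deposited FAIRE tables hold whole-number counts per NFR, made by the authors from reads at sites that tell the species apart and summed over each region. Counts at the UW and the DBV site sets are separate tables. The submitters' processing notes name BWA, CASAVA and sacCer3; versions are not given in the sources used here. RNA tables of the UW cross held counts per gene, with totals from 51389633 to 106845771 in haploids and 36188856 to 54971715 per hybrid allele. Of the tables, 24 were used. The 8 RNA tables of the DBV cross and the sequences of the regions were not analysed here.

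Haploid groups were compared with edgeR 4.0.16 (R 4.3.3) quasi-likelihood tests after TMM scaling. The SE given is the absolute log2 difference divided by the square root of the quasi-likelihood F statistic. It is not a spread between replicates. Alleles of a hybrid library were given a common library size and compared within the library, and trans differences as an interaction with parents paired by replicate number. Benjamini-Hochberg adjustment ran over all 3498 NFRs, or over genes with a mean RNA count of at least 10, and 0.05 was the threshold. Alternatives included DESeq2 1.42.0, other scalings and leaving out each library. To test alleles without 1 replicate of a hybrid, the remaining library was fitted together with both libraries of the other hybrid. The spread between replicates in such fits came from the other hybrid alone. Scripts were tested on simulated data. Tables were summarised with pandas 2.3.3 and numpy 2.4.6 (Python 3.11.15) and drawn with matplotlib 3.10.9.

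The regions, lists and comparisons were chosen with earlier results of these data known. Named regions were the 3 with the largest called difference in each direction and comparison with a mean count of at least 100 and 1 direction in every pairing of libraries, the 5 with the highest level, the 3 most even, those nearest to and farthest from the window, the widest and narrowest, and up to 10 called in UW and both hybrids; 27 further examples were chosen after their values were seen. Gene identities came from the RefSeq R64 table. Each group had 2 biological replicates, which limits the precision of every test.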

Additional observations from a re-analysis of the deposited data

Results flagged for a closer look

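The allele difference at the YIL014C-A region differed between the hybrids by 11.713 on the log2 scale (UW hybrid minus DBV hybrid). It stands out because the same contrast gave different effects in the UW and the DBV hybrid, by an edgeR test of the difference itself. The DBV allele had 0 counts in both libraries, so the fitted value depends on the prior count and is no bound. The cause was not tested.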

How the results depend on the processing

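The number of regions called moved with single libraries and with the model. Counts given below for regions with no annotated start are out of 36 such regions, not out of 361. They describe a smaller set and are not calls lost to a processing choice. For comparison, the shares called of all NFRs in the main fits were 20.4% between UW and CBS and 8.23% between DBV and CBS. Between the alleles of the UW and the DBV hybrid these shares were 24.8% and 29.8%. Shares of all NFRs under the other settings are not given, so the changes are not shown to be particular to these regions. Between UW and CBS the 74 calls became 38 to 57 without 1 library, 39 at an adjusted p under 0.01 and 9 among the regions with no annotated start. Between DBV and CBS the 29 calls became 10 to 66 without 1 library, 54 with DESeq2, 7 at 0.01 and 4 with no annotated start. Between UW and DBV the single call became 1 to 12 without 1 library, 2 with DESeq2, 0 with a window of 500 bp and 0 with no annotated start. The 109 calls in the UW hybrid became 43 to 64 without 1 library, 70 at 0.01 and 10 with no annotated start, and the 115 in the DBV hybrid 51 to 55, 68 and 9. The 0 trans calls in the UW cross became 0 to 1 without 1 library. The level ratio of 1.10 became 1.02 from means of log2 values, 0.427 for regions with no annotated start and 0.982 without division by width.

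The labels give the groups shared replicate numbers, which were not shown to pair the libraries. With a replicate block the calls were 114 between UW and CBS, 84 between DBV and CBS and 9 between UW and DBV. Correlations of same-numbered deviations were 0.17, 0.27 and 0.49. With no replicate block the alleles gave 57 calls in the UW hybrid and 94 in the DBV hybrid. At the region of YGR035C and YGR035W-A the UW hybrid difference of 1.06 ran from -0.017 to 2.15 without 1 library, turning direction without UW hybrid replicate 2. The causes were not tested.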
